A study of Rattus norvegicus with 27 samples.

Results

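The genes described here are 44 genes of DNA replication and of the G1 to S transition, of which 41 were measured among 14217 genes on the array. They were listed by name and each was read from its brightest probe set, the one with the highest mean over the 27 arrays. Cdc6 and Gins2 had no probe set annotated to them here, and Rrm2 was read only by 2 probe sets shared with a second symbol, so none of the 3 is given a value. Acinar cells of the parotid, the serous salivary gland, were taken by laser capture from sections of Sprague Dawley rats at 9 ages: E18 and E20, counted in days of gestation, P0, which is the day of birth, and P2, P5, P9, P15, P20 and P25, where P counts days after birth. Each age had 3 arrays, which per the study's methods came from separate litters, and the animals carried no treatment or engineered allele; sex was not given in the sources used here. Whole heads were cut for the ages to P5 and glands dissected first for P9 and later. A difference between any age to P5 and any later age, E18 against P25 included, cannot be told apart from this change of preparation. The values are log2 signals normalised by the authors, and a change of 1 unit is a doubling or a halving of signal on that scale.

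Before a cell copies its DNA, the origin recognition complex with Cdc6 and Cdt1 loads the Mcm2 to Mcm7 helicase onto origins, a step called licensing. Cdc45 and the GINS complex then switch the helicase on, DNA polymerase alpha with primase lays down primers, and polymerases delta and epsilon extend them on the Pcna clamp that replication factor C loads. Transcription of most of these genes is known to be driven by E2F factors as cells pass from G1 into S, so their transcripts are widely used as signs of proliferation. Acinar cells of the rat parotid divide while they fill with secretory granules and slow their division as the gland matures around weaning. Weaning was not recorded for these animals in the sources used here. Below, the word stands only for the change from P9 and P15 to P20 and P25.

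The RefSeq promoters were searched for E2F words. The choice of genes was not independent of E2F, since most of them are known to be driven by it, so the counts are a description. A window from 250 bases before to 50 bases after the gene start (assembly GRCr8) was available for 38 of the 44 genes, and not for Orc1, Cdc6, Mcm4, Rpa3, Rrm2 and E2f1. The words TTTCCCGC, TTTCGCGC, TTTGCCGC and TTTGGCGC, which are forms of the E2F motif, were searched on both strands. At least 1 of them was found in 17 of the 38 windows (44.7%), against 604 of 27457 windows of all genes (2.2%) and 1 of 26 windows of mitosis genes (3.85%). These sets of windows were not matched for base composition. The windows below are some of those that carry such a word close to the gene start or lie in genes with large changes described later. Mcm5, Pola1 and Tyms fell across weaning, Mcm6, Mcm7, Dtl and Gins1 fell between E18 and P25, and Mcm2 did not pass the test. Each line gives 30 bases, 5′ to 3′ on the strand of the gene, with the E2F word or its reverse complement in capitals.
Mcm5 (chr19:13488794-13488823, plus strand): ccaggttggttTTTCCCGCgaaagtcggct
Pola1 (chrX:62342509-62342538, minus strand): gtcatcacaggGCGCCAAAtgcagtcccgc
Tyms (chr9:120776102-120776131, minus strand): aaggtgcgggtTTTGGCGCcgactacactg
Mcm6 (chr13:42404473-42404502, minus strand): tggcgtctgctTTTGGCGCgaaattagcgt
Mcm7 (chr12:22163212-22163241, minus strand): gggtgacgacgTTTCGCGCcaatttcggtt
Dtl (chr13:105685947-105685976, minus strand): catgacgtcagTTTGGCGCggagtttggcg
Gins1 (chr3:160184884-160184913, plus strand): ggttaagcctaTTTGGCGCcaaagagagga
Mcm2 (chr4:122918090-122918119, minus strand): cgtgacccggtTTTCGCGCgaaaacccgtg

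Counted from the first base of the gene, the word in capitals began at -8 in Mcm5, -14 in Mcm2, -25 in Gins1, -37 in Tyms, -44 in Dtl, -52 in Mcm7, -139 in Mcm6 and -172 in Pola1. In Gins1 and Mcm2 the word and its reverse complement overlapped, so each site was matched on both strands. In Mcm6 a different word, TTTCGCGC on the other strand, began at -135 and overlapped the one in capitals. Mcm5 held further words at -213 and -209, and Mcm7 at -233. Rrm1, Pcna and Prim1, which are among the genes with large falls, held none of the 4 words in this window. CCAAT, the box bound by NF-Y, was found in 24 of the 38 windows (63.2%), 20 of 26 windows of mitosis genes (76.9%) and 37.7% of all windows. TTTGAA and TTCGAA, the forms of the cell cycle homology region (CHR) found in many mitosis genes, gave the opposite order to the E2F words, with 5 of 38 windows (13.2%) for the replication genes, 19 of 26 (73.1%) for the mitosis genes and 19.6% of all windows. Both of these motifs were also searched on both strands, and matches of different motifs may share bases. A match of letters is a description and not a measured binding site.

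Between E18 and P25 most of the replication genes were reduced several-fold. The genes were chosen with earlier results of these data known. The study had already reported Pcna, Mcm3, Mcm4, Mcm5, Mcm6, Mcm7 and Mcm10 as decreasing on these arrays. The shares of all probe sets are therefore given for scale, and the comparison with them is not an independent finding. Of the 41 measured genes, 31 fell and 1 rose at an adjusted p under 0.05 (limma, Benjamini-Hochberg over 31042 probe sets), against 13.4% of all probe sets that fell and 20.1% that rose. Their median change was -2.09 log2 units, while the median of all probe sets was 0.24, a shift that quantile normalisation brought to 0.12. The changes below are given as fitted, and subtracting that 0.24 makes each fall larger and each rise smaller by this amount. In the F test over the 9 ages 27 of the 41 genes passed, against 24.5% of all probe sets. When only the E18 and P25 arrays were fitted the count was 24 in place of 32, without Cdt1, Dtl, Mcm4, Pold1, Pole, Rfc2, Rfc3 and Dnmt1. With muscle, epidermis and cartilage marker means as covariates it was 30, without Pold1 and Rpa1. In captured tissue, fewer dividing cells and less of a transcript per cell cannot be told apart. E18 and P25 also differ in preparation, heads against dissected glands, which cannot be told apart from age.

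**Figure D1:**
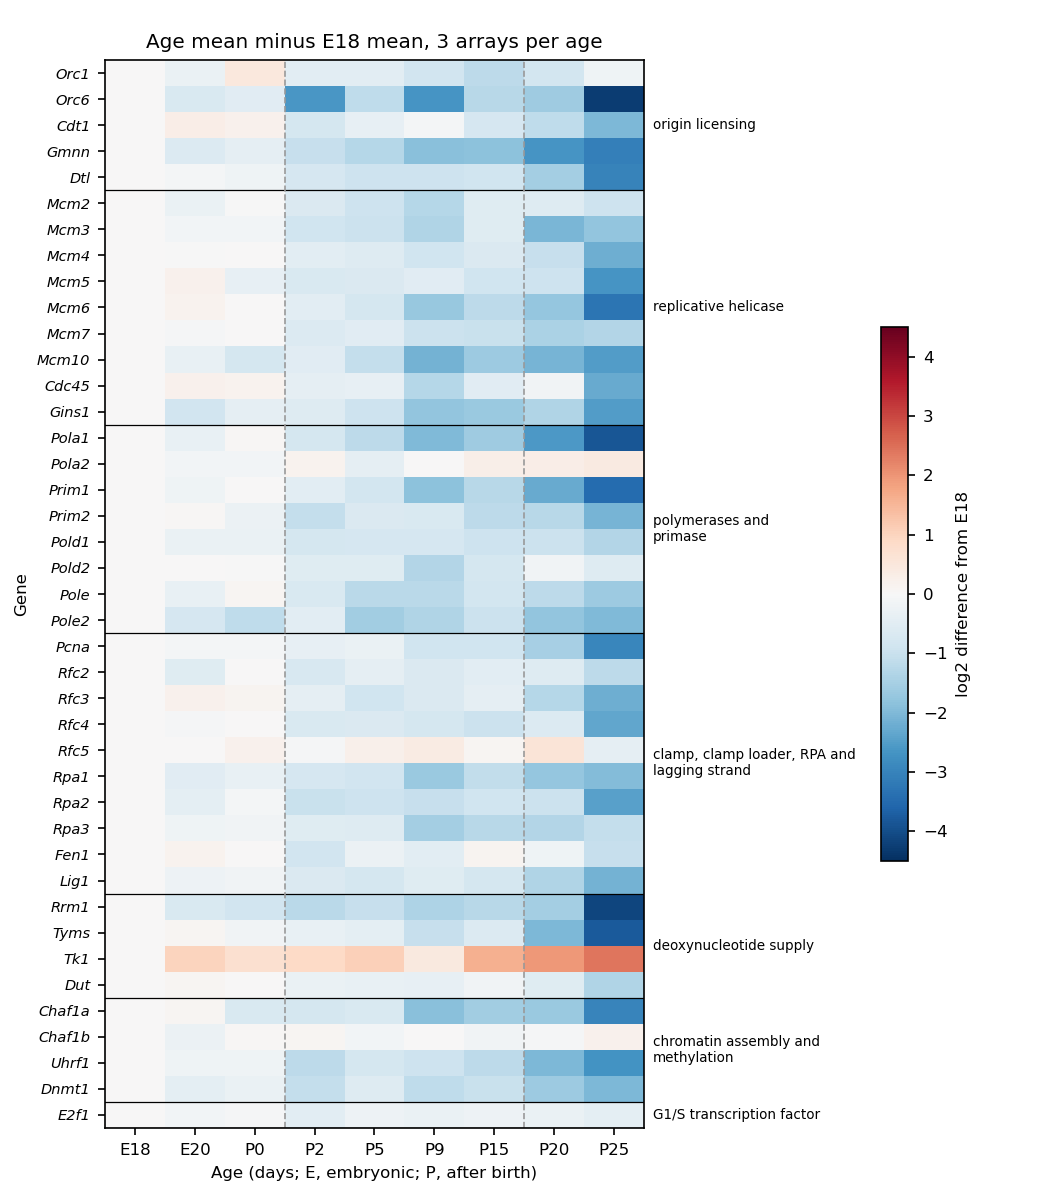
Mean log2 signal of each measured gene at each of the 9 ages minus its mean at E18 (colour, log2 units; 3 arrays per age), with genes in rows by role; dashed lines mark the limits between P0 and P2 and between P15 and P20. Blue deepens most in the P25 column, where Orc6 stands 4.28 and Rrm1 4.12 units below E18, and Tk1 is the most raised row, at 2.40.

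**Figure D2:**
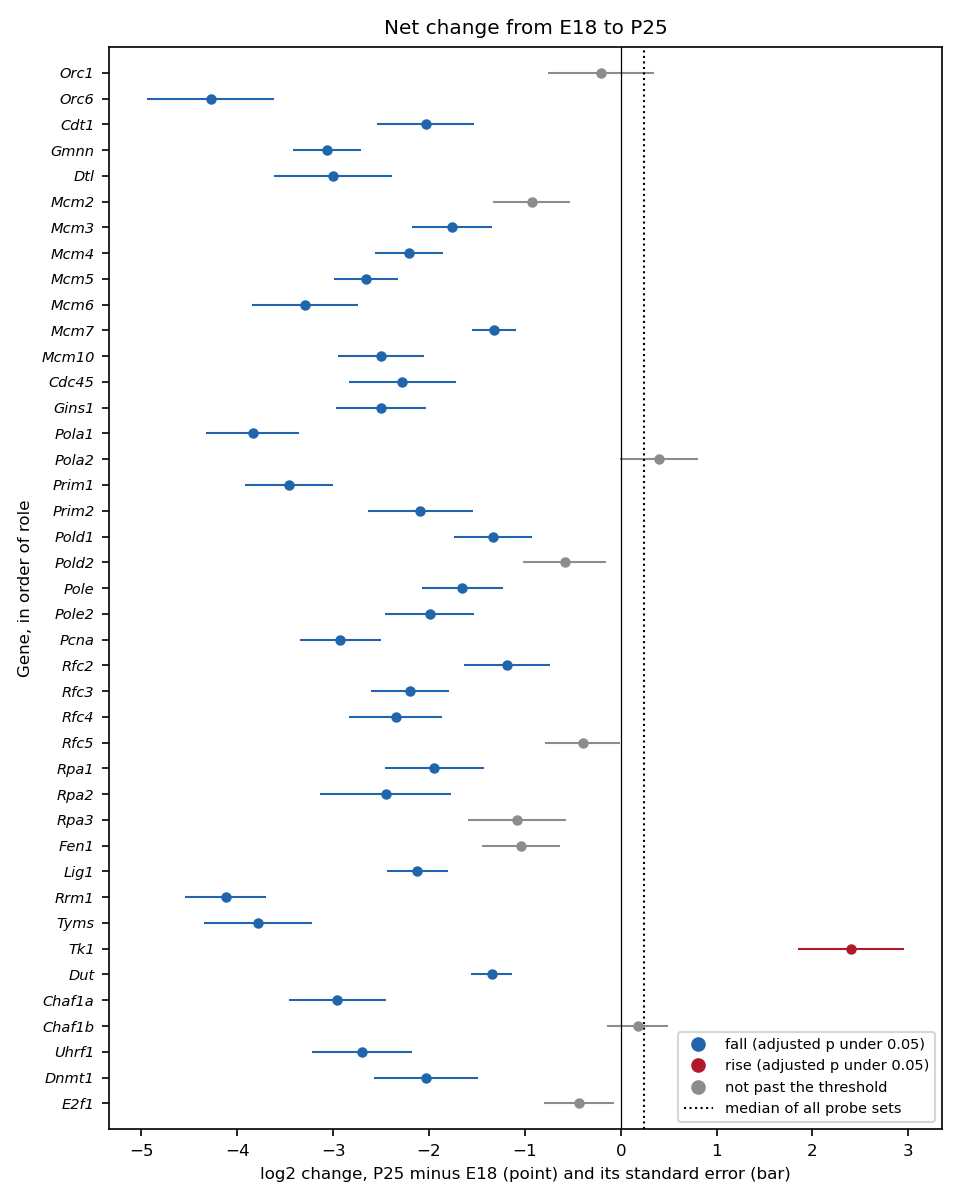
Change from E18 to P25 of each measured gene (log2 units, point) with its standard error (bar), and the median of all probe sets (dotted line, 0.24). Of the 41 genes, 31 fell (blue), Tk1 rose (red) and 9 did not pass the threshold (grey).

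Among the licensing genes 4 of 5 fell. Gmnn encodes geminin, which binds Cdt1 and blocks a second round of licensing. Its log2 signal was 9.33, 9.45 and 9.41 on the E18 arrays and 6.28, 6.93 and 5.80 on the P25 arrays. The 2 groups did not overlap, and it fell by 3.06 log2 units (SE 0.36, adjusted p = 3.04e-06). Orc6, the smallest subunit of the origin recognition complex, had the largest fall of all, from 8.40, 8.22 and 8.94 at E18 to 4.59, 4.47 and 3.67 at P25, a difference of -4.28 (SE 0.66, adjusted p = 8.59e-05). Its other probe sets moved less, with -1.30 (adjusted p = 0.0487) on one and -0.24 (adjusted p = 0.837) on the other, where the P25 arrays read 4.53, 5.66 and 9.18. The size of the Orc6 change therefore depended on the probe set. Dtl, the receptor of the ubiquitin ligase that destroys Cdt1 during S phase, fell by 3.00 (SE 0.61, adjusted p = 0.0012), and Cdt1 itself fell by 2.03 (SE 0.50, adjusted p = 0.00485). Orc1 was dim, with a mean of 4.06, and its change was -0.20 (adjusted p = 0.799).

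The replicative helicase was reduced nearly throughout, with 8 of 9 genes falling. Mcm5 read 10.12, 10.71 and 10.62 at E18 and 7.51, 8.47 and 7.52 at P25. All its P25 arrays lay below each of the other 24 arrays, the lowest of which was 9.13, and the change from E18 was -2.65 (SE 0.33, adjusted p = 7.22e-06). Mcm6 fell by 3.29 (SE 0.56, adjusted p = 0.000207) and Mcm4 by 2.21 (SE 0.35, adjusted p = 0.000125). Mcm7, the brightest of the 41 genes by mean signal (11.61), fell by 1.32, and Mcm3 fell by 1.76. Mcm2 changed by -0.93 (SE 0.40), which did not pass (adjusted p = 0.075). The remaining helicase genes, Mcm10, Cdc45 and Gins1, which act in switching the helicase on, fell by 2.50, 2.28 and 2.50. A second probe set of Mcm10 also fell, by 2.20. Of the other 3 probe sets of Cdc45, one fell by 2.38, one changed by -0.75 (adjusted p = 0.3) and one, dim at 4.58, 5.23 and 5.40 on the E18 arrays, rose by 1.14 (adjusted p = 0.00836), so the Cdc45 probe sets did not all run the same way.

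Of the polymerase and primase genes 6 of 8 fell. Pola1, the catalytic subunit of DNA polymerase alpha, read 10.02, 10.18 and 10.17 at E18 and 5.16, 7.36 and 6.32 at P25. The E18 arrays lay close together while the P25 arrays spread widely, without overlap between the ages, and Pola1 fell by 3.84 (SE 0.48, adjusted p = 7.09e-06). Prim1, the catalytic subunit of primase, fell by 3.46 (SE 0.46, adjusted p = 1.48e-05) and Prim2, its large subunit, changed by -2.09 (adjusted p = 0.00671). Pole2 and Pole, subunits of the leading-strand polymerase epsilon, fell by 1.99 (SE 0.46, adjusted p = 0.00318) and 1.65. Pold1, the catalytic subunit of polymerase delta, fell by 1.33 (adjusted p = 0.0173), a call that was lost when E18 replicate 2, P25 replicate 1 or P25 replicate 3 was left out. Pold2 changed by -0.59 (adjusted p = 0.303). Pola2, the second subunit of polymerase alpha, had a mean signal of only 4.54 and a change of 0.40 (adjusted p = 0.465).

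Of the 10 genes of the clamp, the clamp loader, the single-strand binding protein RPA and the lagging strand, 7 fell. Pcna, the sliding clamp, read 11.22, 11.27 and 11.32 at E18 and 7.44, 9.66 and 7.94 at P25. The groups did not overlap, P25 replicate 2 stood well above the other two P25 arrays, and it fell by 2.92 (SE 0.43, adjusted p = 4.42e-05). Lig1, the ligase that joins Okazaki fragments, fell by 2.12 (SE 0.32, adjusted p = 5.6e-05), and by 1.48 on its second probe set (adjusted p = 0.00194). The clamp loader genes differed among themselves. Rfc3 fell by 2.19 (SE 0.41, adjusted p = 0.000493) and Rfc4 by 2.35, while Rfc5 changed by -0.40 (adjusted p = 0.452) and its second probe set by -0.81 (adjusted p = 0.266). Rfc2 fell by 1.19 (SE 0.44, adjusted p = 0.0443), close to the threshold. That call was lost on leaving out any 1 of E18 replicates 2 and 3, P0 replicate 3, P9 replicate 3, the 3 P15 arrays, the 3 P20 arrays and P25 replicate 2, and the change was -0.58 without P25 replicate 2. Rpa1 fell by 1.95 and Rpa2 by 2.45, and Rpa3 changed by -1.08 (adjusted p = 0.103). Fen1, the flap nuclease, changed by -1.04 (adjusted p = 0.0547).

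The genes of deoxynucleotide supply held both the smallest adjusted p among the 41 genes and the only rise. Rrm1, the large subunit of ribonucleotide reductase, read 10.30, 10.54 and 10.94 at E18 and 5.73, 7.06 and 6.64 at P25. Every P25 array lay below each of the other 24 arrays, and it fell by 4.12 (SE 0.43, adjusted p = 6.65e-07), a 17.4-fold difference in signal. Tyms, thymidylate synthase, read 8.28, 8.98 and 9.22 at E18 and 4.85, 5.01 and 5.26 at P25, a change of -3.78 (SE 0.57, adjusted p = 5.78e-05). Dut, the dUTPase that keeps uracil out of DNA, fell by 1.34 (SE 0.21, adjusted p = 0.000111) from 11.42, 11.74 and 11.78 to 10.53, 10.38 and 9.995, and its dimmer second probe set fell by 2.26 (adjusted p = 0.00409). Tk1, the thymidine kinase of S phase cells, gave opposite readings on different probe sets. The brightest read 7.94, 6.87 and 6.76 at E18 and 9.71, 10.09 and 8.97 at P25, a rise of 2.40 (SE 0.55, adjusted p = 0.00299). The second probe set read 8.30, 8.73 and 8.72 at E18 and 7.37, 6.17 and 6.60 at P25, a change of -1.87 (SE 0.28, adjusted p = 5.92e-05). The third fell by 2.37 (SE 0.83, adjusted p = 0.0321), and it read 8.92, 4.30 and 8.83 on the P20 arrays. The direction for Tk1 therefore rests on which probe set is read, and the mean of the 3 gave -0.61 (SE 0.39, adjusted p = 0.229).

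**Figure D3:**
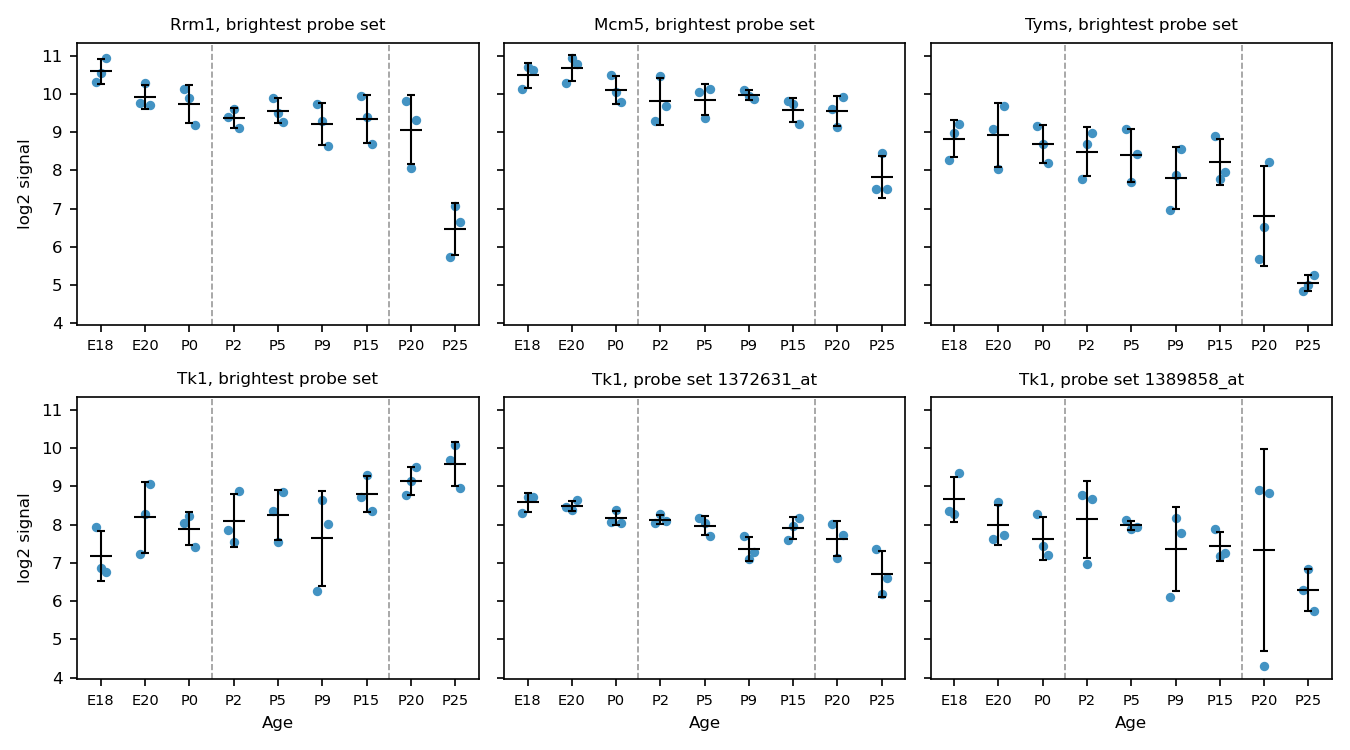
Log2 signal on every array (points) by age for Rrm1, Mcm5 and Tyms and for the 3 probe sets of Tk1, with the mean of 3 arrays (black dash) and the SD (bar); dashed lines mark the limits between P0 and P2 and between P15 and P20. Rrm1, Mcm5 and Tyms are lowest on the P25 arrays, and the brightest Tk1 probe set runs opposite to the other 2.

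Among the chromatin genes Chaf1a, the large subunit of the chromatin assembly factor that follows the fork, fell by 2.95 (SE 0.51, adjusted p = 0.000256). Uhrf1, which brings the maintenance methyltransferase to newly copied DNA, fell by 2.69 (SE 0.52, adjusted p = 0.00075), and Dnmt1, that methyltransferase, by 2.03 (SE 0.55, adjusted p = 0.00808), the last without a call when P25 replicate 3 was left out. Chaf1b, the partner of Chaf1a, stayed between 7.85 and 9.33 on the 27 arrays and changed by 0.18 (adjusted p = 0.696). E2f1, the activating transcription factor of the G1 to S transition, changed by -0.44 (SE 0.36, adjusted p = 0.362). The 9 genes with no call were thus Orc1, Mcm2, Pola2, Pold2, Rfc5, Rpa3, Fen1, Chaf1b and E2f1, and those with a promoter window held an E2F word in 1 of 7 cases, Mcm2, while the genes that fell held one in 16 of 30; Tk1 is counted with the former. The split was not particular to E2F words. CCAAT was found in 22 of the 30 genes that fell (73.3%) and in 1 of the 7 others (14.3%). The CHR forms were found in 4 of 30 and 1 of 7. These shares rest on few genes and were not tested.

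The next question was when the change happened. Over the 41 genes the mean log2 signal was 8.78 ± 0.23 at E18, 8.62 ± 0.15 at E20 and 8.64 ± 0.25 at P0 (SD over 3 arrays). It was 8.14 ± 0.19 at P2 and 8.13 ± 0.32 at P5, then 7.76 ± 0.13 at P9 and 7.98 ± 0.27 at P15. It was 7.66 ± 0.43 at P20 and 6.85 ± 0.44 at P25. The P20 arrays ran from 7.18 to 8.01 and so overlapped the P15 range of 7.72 to 8.26, whereas the P25 arrays ran from 6.38 to 7.26. The means were thus lower from P2 on than at E18, E20 and P0, lay between 7.66 and 7.98 at P9, P15 and P20, and were lowest at P25.

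**Figure D4:**
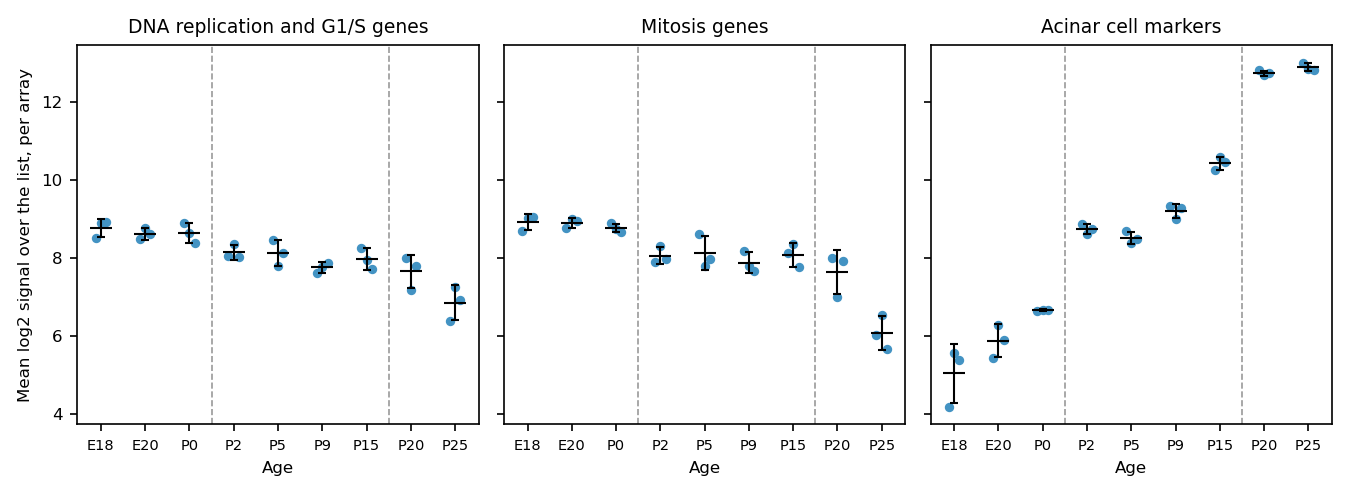
Mean log2 signal per array (points) by age over the 41 replication genes, 27 mitosis genes and 8 acinar cell markers, with the mean of 3 arrays (black dash) and the SD (bar); dashed lines mark the limits between P0 and P2 and between P15 and P20. The replication genes go from 8.78 at E18 to 6.85 at P25 and the mitosis genes from 8.93 to 6.07, while the acinar markers go from 5.04 to 12.89.

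The study grouped the ages into stages, with limits drawn on these same arrays: E18, E20 and P0 as stage 1, P2 and P5 as stage 2, P9 and P15 as stage 3, and P20 and P25 as stage 4. Between stages 1 and 2, across birth and with heads sectioned throughout, 38 of the 41 genes were lower, with a median of -0.56 against -0.01 for all probe sets. None passed in limma, against 1.33% of all probe sets as falls and 1.63% as rises. At an unadjusted p under 0.05 there were 19, all lower, and the fit without moderation called Mcm7. The lowest adjusted p-values were 0.0534 for Mcm7 (-0.54, SE 0.15), 0.0563 for Gmnn (-0.82, SE 0.23) and 0.0666 for Orc6 (-1.47, SE 0.43), all just above the threshold. The Orc6 value rests on its brightest probe set, since the others changed by 0.18 (adjusted p = 0.940) and -0.01 (adjusted p = 0.994). The second Gmnn probe set changed by -0.84 (adjusted p = 0.307). Mcm7 had stage 1 arrays from 12.03 to 12.44 (median 12.25, n = 9) and stage 2 arrays from 11.39 to 12.03 (median 11.66, n = 6), so the stages met at their edges. Gmnn had stage 1 arrays from 8.49 to 9.45 and stage 2 arrays from 7.67 to 8.81, which overlapped. Leaving out single arrays gave up to 3 calls, the most without P2 replicate 2, and at least 1 without E18 replicate 1, P0 replicate 3, P2 replicate 3, P5 replicate 1, P9 replicates 1 and 2, P20 replicate 2 or any P25 array. A smaller reduction at birth than at weaning therefore cannot be read from the count of 0.

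Between stages 2 and 3 limma called none of the 41 genes, against 0.76% of all probe sets. At an unadjusted p under 0.05 there were 9, all lower, the fit without moderation called none, and the median was -0.10. Mcm10 was called when P20 replicate 2 was left out. This step also holds the change from heads to dissected glands.

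Across weaning, between stages 3 and 4 and with dissected glands throughout, 14 of the 41 genes fell and none rose, against 4.27% and 4.09% of all probe sets. Their median was -0.68, compared with 0.09 for all probe sets, and at an unadjusted p under 0.05 there were 19 falls and 2 rises. The 14 came from 6 of the 7 role groups: Cdt1 and Gmnn of licensing, Mcm3, Mcm4 and Mcm5 of the helicase, Pola1 and Prim1 of the priming enzyme, Pcna, Rfc3 and Lig1 of the clamp and lagging strand, Rrm1, Tyms and Dut of nucleotide supply, and Uhrf1. The largest was Tyms, with stage 3 arrays from 6.95 to 8.91 (median 7.91, n = 6) and stage 4 arrays from 4.85 to 8.23 (median 5.47, n = 6). These ranges overlapped through P20 replicate 3, and it fell by 2.08 (SE 0.40, adjusted p = 0.00209). Rrm1 had stage 3 arrays from 8.64 to 9.96 and stage 4 arrays from 5.73 to 9.80, with a change of -1.51 (SE 0.30, adjusted p = 0.0028). Mcm5 had stage 3 arrays from 9.23 to 10.11 and stage 4 arrays from 7.51 to 9.91, and it fell by 1.09 (SE 0.24, adjusted p = 0.00547). In all 3 genes every P25 array lay below every stage 3 array. Pola1 fell by 1.44 (SE 0.34, adjusted p = 0.0107), with stage 3 arrays from 8.01 to 8.82 and stage 4 arrays from 5.16 to 8.01. Prim1 fell by 1.31 (adjusted p = 0.0145), Pcna by 1.32 (adjusted p = 0.00844) and Rfc3 by 1.22 (adjusted p = 0.0104). Gmnn fell by 0.99, Uhrf1 by 1.28, Cdt1 by 1.17, Mcm3 by 0.97, Mcm4 by 0.85 and Dut by 0.68. Lig1 had every stage 4 array (8.70 to 10.33) below every stage 3 array (10.62 to 10.997). It fell by 1.07 (SE 0.22, adjusted p = 0.00415), and by 0.73 on its second probe set (adjusted p = 0.0478). The share of all probe sets that separate from stage 3 in these ways was not computed, for Lig1 or for Tyms, Rrm1 and Mcm5.

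The weaning calls were not equally firm. Mcm5, Lig1, Rrm1, Tyms and Dut were called in each alternative fit and on leaving out each array in turn. Pola1, Prim1, Pcna and Rfc3 were called on leaving out each array, though not in each alternative fit. Gmnn was lost without P15 replicate 1 and in 2 alternative fits, the mean of its probe sets and only the ages compared. Among alternative fits, Cdt1 and Mcm3 were each lost in 6, and Mcm4 and Uhrf1 in 4. Cdt1 was lost on leaving out any of 16 arrays, Mcm3 any of 13, Mcm4 any of 9 and Uhrf1 any of 8, and P15 replicate 1, P20 replicate 2 and P25 replicate 1 were in each of these 4 sets. Without P15 replicate 1 the count was 9. The fall of Dut on its second probe set was -1.17 (adjusted p = 0.0641) and that of Gmnn -0.50 (adjusted p = 0.489), neither past the threshold. Tk1 was higher by 1.14 (adjusted p = 0.0741) on its brightest probe set and changed by -0.46 and -0.58 on the others, also without a call.

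**Figure D5:**
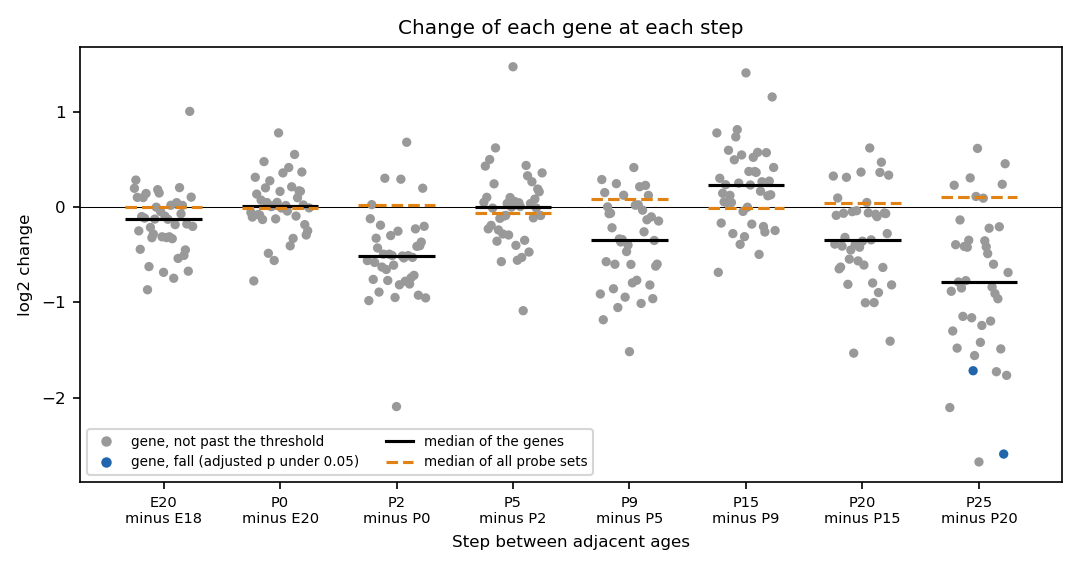
Change of each of the 41 genes (points, log2 units) at each of the 8 steps between adjacent ages, with the median of the genes (black line) and of all probe sets (orange dashes). The genes' median is -0.51 at P2 minus P0, 0.23 at P15 minus P9 and -0.79 at P25 minus P20, the step with the 2 genes past the threshold (blue, Mcm5 and Rrm1).

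Among the steps between adjacent ages, the last had the largest median change. From P15 to P20 limma called none of the 41 genes, against 0.358% of all probe sets, with 6 at an unadjusted p under 0.05 and none in the fit without moderation. There 32 genes were lower, with a median of -0.34, and Mcm3 was called when P15 replicate 2 was left out. From P20 to P25 there were 2 falls, against 0.689% of all probe sets, with 34 of 41 genes lower and a median of -0.79 against 0.10 for all probe sets. At an unadjusted p under 0.05 there were 19, all lower. Rrm1 read 9.80, 8.07 and 9.32 at P20 before the P25 values above, a change of -2.59 (SE 0.43, adjusted p = 0.00377). Mcm5 read 9.61, 9.13 and 9.91 at P20, a change of -1.72 (SE 0.33, adjusted p = 0.0166), which was lost without P20 replicate 1 or without P20 replicate 3. The P20 arrays spread widely, and leaving out P20 replicate 2, the array with the lowest mean of the 3, added Pcna and Dut to the calls. The count was also 4 without P9 replicate 1 or without P25 replicate 2.

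In 10 of the 41 genes every P25 array lay below every P20 array, against 6.45% of all probe sets: Orc6, Mcm5, Cdc45, Gins1, Rfc4, Rfc5, Fen1, Rrm1, Tyms and Dut. In 31 of 41 every P25 array lay below every E18 array, against 15.3%. In 4 genes, Mcm5, Rrm1, Tyms and Dut, every P25 array lay below all other arrays, against 1.56%. These are counts of arrays that did not overlap and not tests.

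In the 6 steps from E18 to P15 limma called none of the 41 genes, and neither did the fit without moderation, against 0.28% of all probe sets called in at least 1 of them. At an unadjusted p under 0.05 there were none at E20 minus E18 or P0 minus E20, 3 at P2 minus P0, 2 at P5 minus P2, 4 at P9 minus P5 and 2 at P15 minus P9. From P0 to P2, 36 of 41 genes were lower (median -0.51). From P5 to P9, 30 were lower (median -0.34), the step that also changed preparation. From P9 to P15, 29 were higher (median 0.23).

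For the 31 genes that fell, the share of the E18 to P25 change completed in each interval was computed from the age means, as a description. These genes were chosen because P25 was called below E18 on the same arrays. That choice favours a low P25 and a high E18. It therefore partly fixes the lowest and highest ages, the midpoints and the share of the last interval. The median share was 30.6% by P5, 15.8% from P5 to P9, -9.76% from P9 to P15 (a step back up), 20.8% from P15 to P20 and 43.4% from P20 to P25. The age from which a gene stayed past the midpoint of its change was P20 in 14 genes, P25 in 9, P9 in 6 and P15 and P2 in 1 each. The 9 genes that stayed past it only from P25 were Orc6, Mcm4, Mcm5, Cdc45, Rfc2, Rfc4, Rpa2, Rrm1 and Dut. Of these, Orc6 and Rfc2 had also been past it at P2 and P9, and Cdc45 at P9, before returning above it. Gmnn, Mcm7, Mcm10, Gins1, Rpa1 and Chaf1a were past it from P9. That age, and the share from P5 to P9, cannot be told apart from the change to dissected glands. Pold1, which completed 57.1% of its change by P5, was past it from P2. Pole and Pole2 had completed 73.9% and 78.1% by P5 but came back over the midpoint and stayed past it only from P20. Others that stayed past it from P20 had also crossed it before and were above it again at P15. These were Mcm3 (past it at P2, P5 and P9), Dnmt1 (P2 and P9) and Mcm6, Pola1 and Prim1 (P9). Prim2, which stayed past it from P15, had also been past it at P2. Of the 31, 29 were lowest at P25, and Mcm3 and Mcm7 were lowest at P20. The highest age was E18 in 15, E20 in 9 and P0 in 7.

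The role groups of more than 1 gene were also lowest at P25, with means that differed in their course, while E2f1 was lowest at P2 (7.41 against 7.44 at P25). The licensing genes had a mean of 8.26 ± 0.20 at E18, 7.12 ± 0.25 at P2, 7.07 ± 0.11 at P15 and 5.74 ± 0.58 at P25 (SD, n = 3). The helicase genes had 9.46 ± 0.34, 8.87 ± 0.23, 8.50 ± 0.26 and 7.30 ± 0.40 at the same ages. The nucleotide supply genes, which include the rising Tk1 probe set, had 9.56 ± 0.10, 9.32 ± 0.26, 9.46 ± 0.36 and 7.85 ± 0.25, so that their P15 arrays (9.09 to 9.81) still overlapped those of E18 (9.48 to 9.68). The chromatin genes had 8.50 ± 0.22, 7.77 ± 0.15, 7.53 ± 0.22 and 6.62 ± 0.67. These are means over few genes and were not tested.

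Whether the weaning step differed from the birth step was tested directly. None of the 41 genes passed in limma, against 3.4% of all probe sets, with 5 at an unadjusted p under 0.05 and none in the fit without moderation. The median difference was 0.00. Tyms was called without P20 replicate 3, and Pcna without P25 replicate 2. So although 14 genes passed at weaning and none at birth, no gene was shown to change more at one than at the other.

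The arrays of one age also differed together in these genes. After the mean of each age was removed, each gene was compared over the 27 arrays with the mean of the other 40. Pearson's r had a median of 0.50 and ran from -0.02 (Rfc2) to 0.83 (Prim1), above 0 in 40 of 41 genes. The array means of the replication genes and of the mitosis genes, treated the same way, had an r of 0.709. P20 replicate 2 lay 0.48 below its age mean and P25 replicate 1 0.47 below, while P25 replicate 2 lay 0.41 above and P20 replicate 1 0.35 above. These correlations describe arrays that share amplification, normalisation and any other tissue in the capture.

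Genes of the same pathway outside the list were described from lists of 31 other fork and origin factors, 10 other nucleotide enzymes, 24 E2F, RB and cyclin genes and 27 mitosis genes that were measured. From E18 to P25, 22 of the 31 fork and origin factors fell. Topbp1, which helps load Cdc45, fell by 5.76 (SE 0.68, adjusted p = 3.62e-06), and Hells, a chromatin remodeller tied to DNA methylation, by 2.35 (SE 0.29). Of the 10 nucleotide enzymes 3 fell, among them the salvage kinase Dck by 2.67 (SE 0.45) and the folate enzyme Mthfd1 by 1.22 (SE 0.36). Of the E2F, RB and cyclin genes 11 fell and 1, the CDK4 and CDK6 inhibitor Cdkn2c, rose by 1.07 (adjusted p = 0.00164). Cdk4, the kinase that partners D-type cyclins, fell by 2.20 (SE 0.28), and Ccna2, the cyclin of S and G2, by 4.56 (SE 0.66). In the weaning step 6 of the 31 fork and origin factors fell (Topbp1, Hells, Asf1b, Dscc1, Nasp and Timeless), none of the nucleotide enzymes passed in limma (2 higher and 2 lower at an unadjusted p under 0.05, with 5 of 10 lower and a median of 0.02) and 5 of the E2F, RB and cyclin genes fell, among them Ccna2 (-2.18, SE 0.46), whereas Cdk4 changed by -0.17 (adjusted p = 0.635). In the birth step 3, 1 and 2 genes of these lists fell. Of all probe sets, 13.4% fell and 20.1% rose from E18 to P25, 4.27% fell in the weaning step and 1.33% in the birth step. These lists were described by their counts, and no list was tested against another.

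Of the 27 mitosis genes 25 fell from E18 to P25, with a median of -2.61. Cdk1, the kinase of mitotic entry, fell by 4.53 (SE 0.41, adjusted p = 9.11e-08) and Mki67, the proliferation marker, by 2.06 (SE 0.20, adjusted p = 3.39e-07). In the birth step 7 of 27 mitosis genes fell, in the weaning step 13, and from P20 to P25 11, beside 0, 14 and 2 of the 41 replication genes. The shares of all probe sets that fell in these steps were 1.33%, 4.27% and 0.689%, and 13.4% fell from E18 to P25. The difference between these counts was not tested.

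Cell type markers moved over the same ages, against 13.4% of all probe sets that fell and 20.1% that rose from E18 to P25, and 4.27% that fell in the weaning step. All 8 acinar markers rose from E18 to P25, and their mean ran from 4.18 to 6.68 on stage 1 arrays and from 12.69 to 13.01 on stage 4 arrays. Of 8 fibroblast markers, 6 fell from E18 to P25 and 7 in the weaning step, and their mean ran from 10.82 to 11.28 on stage 3 arrays and from 9.47 to 10.59 on stage 4 arrays. Of 5 duct and basal cell markers 4 fell in each of these comparisons, with means from 9.12 to 10.26 on stage 3 and from 7.32 to 8.26 on stage 4 arrays. The part of cells other than acinar cells in the fall of the replication genes was not tested. RNA integrity was gauged by GAPDH, whose 3′ control probe set read above its 5′ one by 2.08 ± 0.62 at E18 and 1.67 ± 0.14 at P25 (log2 units, SD, n = 3), and its part was not tested either.

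Skeletal muscle, epidermis and cartilage markers varied from array to array within an age, with muscle means from 5.64 to 11.85 in stage 1, 4.51 to 11.94 in stage 3 and 5.05 to 8.30 in stage 4. None of the 9 muscle markers passed in limma from E18 to P25 or in the weaning step (1 and 0 at an unadjusted p under 0.05), though all 9 were lower in both. In the weaning step 3 of 7 epidermis and hair follicle markers, 2 of 7 cartilage and bone markers and 2 of 5 myoepithelium markers fell, and from E18 to P25 1 epidermis and 3 cartilage markers fell while 2 myoepithelium markers rose. The epidermis mean ran from 4.60 to 9.02 on stage 3 arrays and from 4.61 to 5.14 on stage 4 arrays, and the cartilage mean from 5.45 to 8.47 and from 4.85 to 5.78. The myoepithelium mean ran from 9.95 to 10.83 and from 7.77 to 9.76. The part of these tissues in the weaning falls was not tested beyond the fits that follow. Without the 4 arrays whose muscle mean was above 11 (E18, E20 and P0 replicate 1 and P9 replicate 3), 31 genes fell and 1 rose from E18 to P25, 10 fell in the weaning step and 2 from P20 to P25. With muscle, epidermis and cartilage marker means as covariates the weaning count was 7. The E18 to P25 median was -2.21 without the 4 arrays and -2.09 with all arrays. Of the 4, only E18 replicate 1 enters that contrast directly, so the part of muscle in it was not tested.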

How the data were processed

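For each of 27 Affymetrix rat arrays the authors computed log2 signals per probe set by RMA, which corrects background, normalises the arrays against each other and combines the probes of a set. These deposited log2 signals were not transformed further. RNA input differed between samples per the labels, with no assignment to arrays, so it was not tested. The table held 31099 probe sets, of which 57 controls were left out; 20826 carried 1 symbol, 436 several and 9780 none here, and 20758 matched the RefSeq genes through their gene IDs. Signals ran from 1.43 to 14.63, array medians from 5.91 to 6.13 and correlations within an age from 0.873 to 0.962; no pair of arrays was identical. The number of arrays limits the precision.

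A linear model with a mean for every age was fitted in limma (version 3.58.1, under R 4.3.3), leaving 18 residual degrees of freedom, and variances were moderated by empirical Bayes. Tests were two-sided, with a Benjamini-Hochberg adjusted p under 0.05 as threshold, and were tested on simulated data. Contrasts share arrays: the P25 arrays enter P25 minus E18, P25 minus P20, the weaning step and its difference from the birth step.

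The genes, role groups, pathway and marker lists were chosen with earlier results of these data known. Described in full were, per role, the 3 genes with the largest moderated t from E18 to P25, any rise, the 3 largest called changes per contrast and genes whose probe sets disagreed; from other lists, the 2 largest t. Sequences are from RefSeq (GRCr8); for 2 genes with several promoter entries the first was used.

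Alternatives were array centring, quantile normalisation, a replicate block, the mean of a gene's probe sets, a filter on dim probe sets, marker covariates, no moderation, only the ages compared and leaving out each array. Leaving out the arrays with high muscle markers was added after seeing the data.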

Additional observations from a re-analysis of the deposited data

How the results depend on the processing

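Replicate numbers were not treated as pairs in the leading fit. Deviations of same-numbered arrays from their age means correlated between -0.11 and 0.46, with a median of 0.01. In stage 1, however, E18, E20 and P0 replicate 1 all had muscle means above 11. The same 3 arrays had the highest epidermis means of their ages (9.18, 8.89 and 8.42). Whether same-numbered arrays shared a batch was not tested. With the replicate number as a block, the count at the birth step was 1 (Orc6, on its brightest probe set) in place of 0. The counts with this block were 33 from E18 to P25, 12 at weaning and 3 from P20 to P25.

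For the birth step, where the leading fit called 0 genes, the count was 2 with arrays centred on their medians, 1 with the mean of all probe sets of a gene, 3 among probe sets above the median level, 1 without moderation and 4 with only the ages compared. For the suckling step it was 1 with only the ages compared. The weaning count of 14 became 7 with marker covariates and 6 with only the ages compared, where the P25 minus P20 count of 2 became 0. The difference between the weaning and birth steps gave 1 gene, Tyms, under quantile normalisation. Tk1 from E18 to P25 was -0.61 with the mean of its probe sets. The causes were not tested, except that fewer arrays enter with only the ages compared.

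Leaving out each array in turn gave 21 to 28 genes for the F test, 30 to 33 from E18 to P25, 0 to 3 at birth, 0 to 1 in suckling, 9 to 15 at weaning, 0 to 1 from P15 to P20, 1 to 4 from P20 to P25 and 0 to 1 for the difference of steps. The E18 to P25 count of 32 was 24 with only the ages compared and 30 with marker covariates, and the F test count of 27 was 20 with marker covariates. Dim probe sets, such as those of Orc1 and Pola2, limit what can be seen.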
